A study of Rattus norvegicus with 18 samples.

Results

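Citric acid cycle enzymes were followed as 9 genes, Cs, Idh3a, Idh3b, Idh3g, Ogdh, Sucla2, Suclg1, Fh and Mdh2, taken as every probe set whose only gene symbol in the platform annotation was one of these names. The array held 12 such probe sets for 8 of the genes, out of 31042 probe sets for RNA of the rat. Fh, the enzyme fumarase, is not analysed here. Cs had 4 probe sets, Sucla2 had 2 and each other gene had 1. Expression had been measured on 18 arrays, 9 of subcutaneous fat from the abdomen and 9 of hypothalamus, with 3 arrays in each of 3 groups. RYGB-Success rats had lost weight after Roux-en-Y gastric bypass, RYGB-Fail rats had the same operation and were gaining weight, and Pair-Fed rats received the amount of food that the treated rats ate. Strain, sex, age, diet and time after the operation are not given in the sources used here, nor is it stated whether the Pair-Fed rats had a sham operation or whether the fat and hypothalamus with one replicate number came from one rat. The design text calls the 3 RNA samples of a group biological replicates.

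The citric acid cycle runs in the mitochondrial matrix, where it oxidises the acetyl group of acetyl-CoA to carbon dioxide and passes the electrons to the respiratory chain. Citrate synthase, encoded by Cs, makes citrate, NAD-dependent isocitrate dehydrogenase is built from the subunits Idh3a, Idh3b and Idh3g, and Ogdh is the first component of the 2-oxoglutarate dehydrogenase complex. Succinate-CoA ligase joins the alpha subunit Suclg1 to Sucla2, its ADP-forming beta subunit, and malate dehydrogenase, Mdh2, closes the cycle. Muscle and brain are rich in these enzymes. White fat has few mitochondria per cell but exports citrate from them to the cytosol as the carbon source of fatty acid synthesis.

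Members with and without a motif match were high together on 1 fat array described below. Promoters are shown for the members that share a short motif. RefSeq start sites on the GRCr8 assembly gave a window of 300 bases (from 250 before the start to 50 after it) for 7 of the 8 measured genes. The windows were searched on both strands for CCGGAAG, the core bound by the ETS family that includes GABP, for GCGCNTGCG, bound by NRF1, and for TNAAGGTCA, bound by oestrogen-related receptors. These factors are known regulators of mitochondrial genes. CCGGAAG was found in 3 of the 7 windows, those of Idh3b, Idh3g and Mdh2, and in 8.75% of all 33469 promoter windows. The NRF1 motif was found in 2 windows, those of Sucla2 and Idh3g, and in 5.75% of all windows. It was first searched with 1 more letter and shortened after that result was seen, which had been 1 of the 7 windows, that of Sucla2, and 4.25% of all. The receptor motif was in 0 of the 7 and in 1.2% of all windows. The 3 windows with the ETS core follow, 5′ to 3′ on the gene's strand, with motif matches in capitals, the ETS core in all and the NRF1 motif as the second match of Idh3g. Idh3b lies at chr3:137939941-137940240 and carries the core as its reverse complement, Idh3g lies at chrX:156675433-156675732, and Mdh2 at chr12:26543792-26544091, all on the minus strand.
Idh3b: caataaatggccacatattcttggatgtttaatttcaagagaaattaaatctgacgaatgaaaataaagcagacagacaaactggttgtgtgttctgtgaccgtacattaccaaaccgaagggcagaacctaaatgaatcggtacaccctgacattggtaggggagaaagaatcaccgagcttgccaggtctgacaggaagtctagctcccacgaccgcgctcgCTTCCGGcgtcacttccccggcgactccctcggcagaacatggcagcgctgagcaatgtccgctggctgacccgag
Idh3g: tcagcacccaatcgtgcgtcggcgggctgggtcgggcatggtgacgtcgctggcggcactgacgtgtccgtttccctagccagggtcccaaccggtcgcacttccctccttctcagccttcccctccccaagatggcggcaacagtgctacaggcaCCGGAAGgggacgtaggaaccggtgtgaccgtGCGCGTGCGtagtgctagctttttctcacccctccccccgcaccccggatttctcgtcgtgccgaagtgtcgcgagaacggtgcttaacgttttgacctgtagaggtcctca
Mdh2: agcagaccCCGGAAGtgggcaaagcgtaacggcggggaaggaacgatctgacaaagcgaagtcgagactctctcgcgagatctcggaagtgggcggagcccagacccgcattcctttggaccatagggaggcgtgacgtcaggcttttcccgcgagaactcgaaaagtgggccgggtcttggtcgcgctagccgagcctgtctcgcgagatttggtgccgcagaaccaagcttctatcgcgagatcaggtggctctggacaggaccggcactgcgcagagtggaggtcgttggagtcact
Counted from the start site, whose base is 0, the core ran from -26 to -20 in Idh3b, from -94 to -88 in Idh3g and from -242 to -236 in Mdh2. The Idh3b window lies inside the annotated gene, whose outer end is at 137940275, so its positions depend on the start site taken. The NRF1 motif of Idh3g ran from -62 to -54, and the matches did not overlap. A match is a description of these letters and says nothing on binding.

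Signals are linear and had been scaled on every array to the same trimmed mean. RYGB-Fail replicate 3 of fat had the highest median signal of the 9 fat arrays, 288, where the lowest was 98.2. Its median correlation with the other fat arrays was 0.73 on the log2 scale, against 0.79 to 0.85 on the others, and its ratio of 3′ to 5′ actin probe sets was 2.46, against 12.0 to 24.3. The same ratio for Gapdh was 3.80, within the 2.91 to 5.89 of the other fat arrays. The mean log2 signal of 8 white adipocyte markers was 10.88 to 12.38 on fat arrays, against 3.52 to 6.27 on hypothalamus arrays. The level of 7 neuron markers was 5.95 to 7.64 on fat arrays, against 11.22 to 11.86 on hypothalamus arrays. Markers of skeletal muscle differed within fat, and their values stand beside the results they touch.

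Cs, which condenses acetyl-CoA with oxaloacetate, was brightest on probe set 1375295_at. In fat its signal was 2257, 2699 and 1511 in RYGB-Success rats and 644, 3753 and 2414 in RYGB-Fail rats (replicates 1, 2 and 3), against 861, 1300 and 1734 in Pair-Fed rats. All groups overlapped, and within RYGB-Fail the arrays held both the lowest and the highest of the 9 fat values. In hypothalamus it was 1844, 1816 and 1751 in RYGB-Success rats and 817, 2307 and 1713 in RYGB-Fail rats, against 1391, 1436 and 2166 in Pair-Fed rats, again with overlap. The probe sets 1369967_at and 1384201_at were dimmer, at 101 to 284 and 53.8 to 187 in fat and at 95.8 to 185 and 50.4 to 217 in hypothalamus. Probe set 1396453_at stayed below the filter in both tissues, with signals of 3.4 to 36.5 in fat and 3.0 to 64.4 in hypothalamus, and was not tested.

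Idh3a, the catalytic subunit of isocitrate dehydrogenase, had signals of 460, 635 and 646 in fat of RYGB-Success rats and 567, 2692 and 795 in RYGB-Fail rats, against 402, 469 and 444 in Pair-Fed rats. All RYGB-Fail arrays lay above all Pair-Fed arrays, and replicate 2 was over 3 times as bright as any other fat array. In hypothalamus Idh3a was 2935, 2140 and 3072 in RYGB-Success rats and 2419, 2420 and 2232 in RYGB-Fail rats, against 2106, 3186 and 2119 in Pair-Fed rats. The hypothalamus groups overlapped.

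Idh3b, a second subunit of the same enzyme, was 790, 791 and 736 in fat of RYGB-Success rats and 641, 4523 and 745 in RYGB-Fail rats, against 700, 843 and 668 in Pair-Fed rats. Without RYGB-Fail replicate 2 the other 8 fat arrays lay between 641 and 843, and that array was 5.36-fold above the highest of them. In hypothalamus Idh3b was 1340, 1407 and 1430 in RYGB-Success rats and 1220, 1082 and 1148 in RYGB-Fail rats, against 982, 1149 and 1346 in Pair-Fed rats. RYGB-Success lay above RYGB-Fail on all 3 arrays but overlapped Pair-Fed.

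Idh3g, the remaining subunit, was 3285, 3299 and 3757 in fat of RYGB-Success rats and 2572, 9342 and 3496 in RYGB-Fail rats, against 3321, 3982 and 4225 in Pair-Fed rats. Replicate 2 of RYGB-Fail was the highest fat array and replicate 1 the lowest. In hypothalamus it was 5832, 5561 and 3334 in RYGB-Success rats and 4021, 5361 and 4841 in RYGB-Fail rats, against 3085, 3572 and 4546 in Pair-Fed rats, with overlap throughout.

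Ogdh, which decarboxylates 2-oxoglutarate, was 815, 783 and 578 in fat of RYGB-Success rats and 603, 2589 and 861 in RYGB-Fail rats, against 683, 887 and 792 in Pair-Fed rats. In hypothalamus it was 893, 959 and 1213 in RYGB-Success rats and 991, 933 and 775 in RYGB-Fail rats, against 709, 762 and 800.4 in Pair-Fed rats. In hypothalamus the RYGB-Success arrays lay above all Pair-Fed arrays, while RYGB-Fail overlapped both.

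The subunits of succinate-CoA ligase followed the same outline. Sucla2, by probe set 1388975_at, was 582, 664 and 525 in fat of RYGB-Success rats and 532, 2074 and 329 in RYGB-Fail rats, against 672, 703 and 567 in Pair-Fed rats. RYGB-Fail thus held both the highest and the lowest fat array. Its hypothalamus signals kept to 966 to 1167 in RYGB-Success rats and 1002 to 1157 in RYGB-Fail rats, against 865 to 1163 in Pair-Fed rats. The dim Sucla2 probe set 1381671_at (3.87 to 366 in fat, 1.07 to 59.7 in hypothalamus) was below the filter in both tissues and was not tested. Suclg1 was 1714, 1466 and 1051 in fat of RYGB-Success rats and 1052, 3055 and 1145 in RYGB-Fail rats, against 1168, 1692 and 1357 in Pair-Fed rats. In hypothalamus it was 2029, 1617 and 2386 in RYGB-Success rats and 1950, 1803 and 1660 in RYGB-Fail rats, against 1444, 1491 and 1760 in Pair-Fed rats. The groups overlapped in both tissues for both genes.

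Mdh2, which regenerates oxaloacetate, was 1614, 1532 and 980 in fat of RYGB-Success rats and 1898, 5039 and 1034 in RYGB-Fail rats, against 1762, 1304 and 1431 in Pair-Fed rats. In hypothalamus it was 4335, 2822 and 3991 in RYGB-Success rats and 3277, 3151 and 2867 in RYGB-Fail rats, against 3570, 2680 and 4155 in Pair-Fed rats. The treatment groups overlapped in both tissues, and in each treatment group other than RYGB-Fail every fat array lay below every hypothalamus array.

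**Figure D1:**
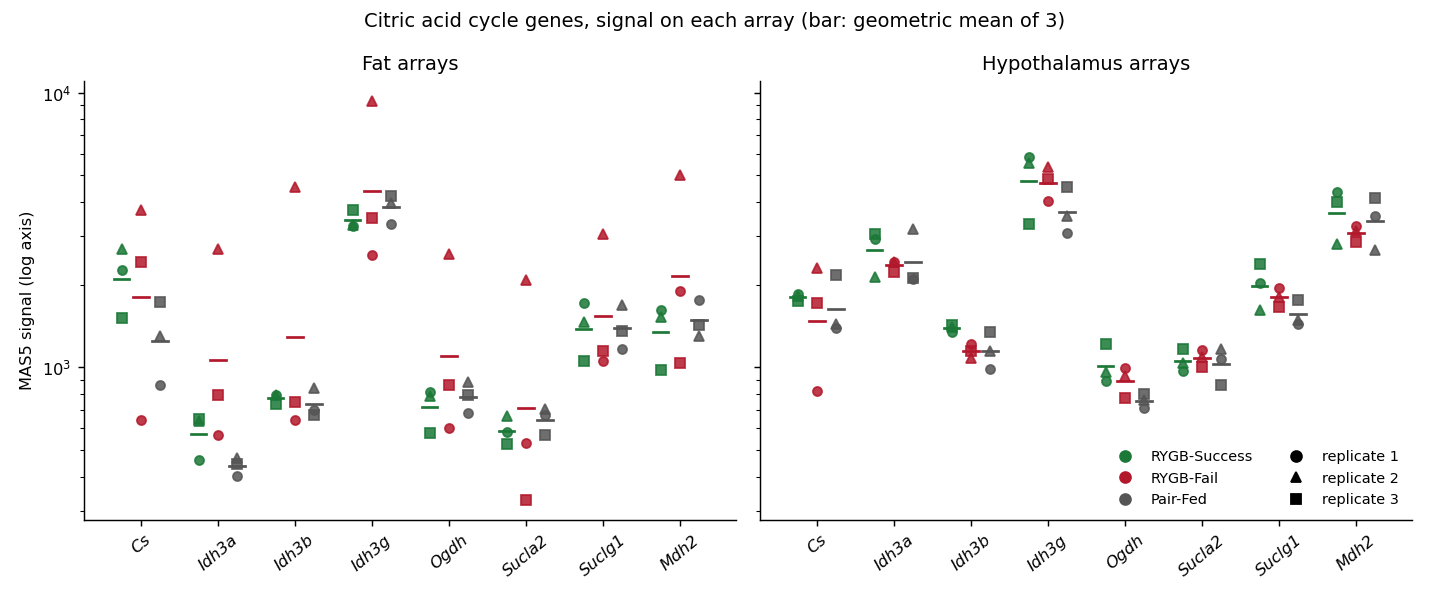
MAS5 signal (log axis) of 8 citric acid cycle genes on each array of fat (left) and hypothalamus (right), with the brightest probe set of each gene; colour gives the group, marker shape the replicate and the bar the geometric mean of 3 arrays. RYGB-Fail replicate 2 (red triangle) is the highest fat array for all 8 genes, 4523 against at most 843 for Idh3b, and does not stand apart in hypothalamus, where replicate numbers need not mean the same rat.

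The first comparison asked whether expression in fat differed between rats gaining weight after bypass and Pair-Fed rats. All 10 tested probe sets had a higher mean log2 signal in RYGB-Fail, with a median difference of 0.44 against -0.09 over all 18625 probe sets tested. Idh3a differed most, by 1.29 ± 0.50 (SE, n = 3 arrays each, a 2.44-fold higher mean), and Idh3b by 0.82 ± 0.60. The other 8 differences ran from 0.13 for Cs 1369967_at to 0.53 for Mdh2 and Cs 1375295_at. With quantile normalization 2 of the 10 turned lower, and centring each array on its median left 10 higher. No member passed limma's test (adjusted p = 1 for Idh3a over all probe sets tested, 0.316 to 1 over its alternatives). Idh3a was the 1 member with an unadjusted p under 0.05 in that test, against 2.69% of all probe sets. It was also the 1 member whose groups did not overlap, as 6.9% of all probe sets did not. The share of probe sets that passed in this comparison was 0%.

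Most of this difference rested on 1 array. RYGB-Fail replicate 2 was the highest of the 9 fat arrays for 9 of the 10 tested probe sets, where it was the highest for 13.5% of all probe sets. Its signal exceeded the highest of the other 8 arrays 3.38-fold for Idh3a, 2.95-fold for Sucla2, 2.92-fold for Ogdh, 2.66-fold for Mdh2, 2.21-fold for Idh3g, 1.78-fold for Suclg1 and 1.39-fold for Cs 1375295_at. Without that array 3 of the 10 probe sets were higher and 7 lower in RYGB-Fail, with a median of -0.09, and Idh3a differed by 0.62 ± 0.36. Idh3b was then at -0.09 and Sucla2 at -0.62. Without RYGB-Fail replicate 3, the array with the high median signal, 10 of 10 were higher with a median of 0.58.

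**Figure D2:**
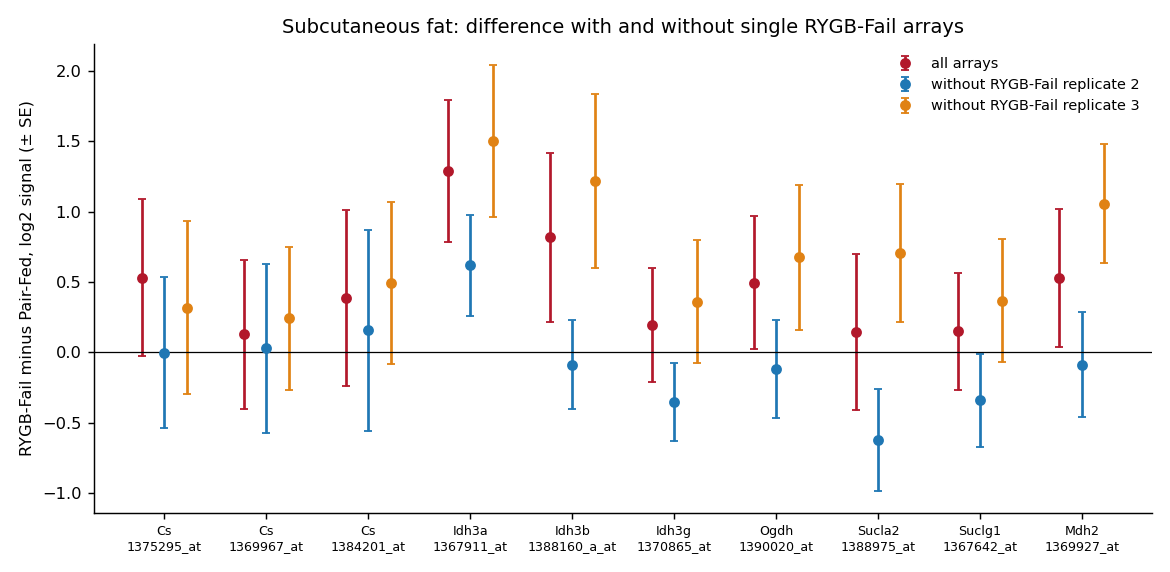
Difference in mean log2 signal between RYGB-Fail and Pair-Fed fat (vertical axis, points with ± SE) for the 10 tested probe sets (horizontal axis), with all arrays and without RYGB-Fail replicate 2 or 3. All 10 points lie above 0 with all arrays, and 7 lie below 0 without replicate 2.

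Markers of skeletal muscle also differed between these fat arrays. Over 15 genes of the muscle contractile and energy apparatus the mean log2 signal was 7.05 to 8.08 in RYGB-Success fat and 11.85, 14.07 and 8.37 on RYGB-Fail replicates 1, 2 and 3, against 5.07 to 6.67 in Pair-Fed fat. All 13 of these genes that were tested were higher in RYGB-Fail than in Pair-Fed, by a median of 5.95, and 0 passed limma's test. Without RYGB-Fail replicate 3, 11 of the 13 passed, as did 42 of all 18625 probe sets. Ckm, the creatine kinase of muscle, reached 260 to 23944 in RYGB-Fail fat, against 4.22 to 63.7 in Pair-Fed fat, and 0 of the 15 genes was listed at 0. In such bulk samples more muscle cells and more muscle RNA per cell cannot be told apart. The mean log2 signal of the 8 citric acid cycle genes was 9.79, 11.85 and 10.06 on RYGB-Fail replicates 1, 2 and 3, against 9.92 to 10.15 in Pair-Fed fat. Replicate 1, with a muscle level of 11.85, was thus below every Pair-Fed array for the cycle genes, and replicate 2, with 14.07, was above them. With the muscle level as a covariate 1 of 10 probe sets was higher and 9 were lower in RYGB-Fail than in Pair-Fed (median -0.76, 0 passed). The muscle levels of RYGB-Fail and Pair-Fed fat did not overlap, so this fit cannot separate muscle level from group. The part of muscle RNA in the level of these genes was not tested further. All 7 tested white adipocyte markers were lower in RYGB-Fail than in Pair-Fed fat (median -0.48, 0 passed), and 5 were without replicate 2. Their mean log2 signal (8 genes) was 11.27, 10.88 and 12.22 on RYGB-Fail replicates 1, 2 and 3, against 11.65 to 12.38 in Pair-Fed fat. The part of adipocyte RNA in the members' values was not tested. Of 7 brown adipocyte markers 2 were bright enough to be tested in fat, and they went opposite ways. Cox8b, a cytochrome oxidase subunit that muscle also uses, had signals of 199 to 13650 in RYGB-Fail fat, against 41.5 to 63.0 in Pair-Fed fat (4.58 ± 1.20). Cidea, a lipid droplet protein, had 426 to 850 in RYGB-Fail fat, against 1187 to 1498 in Pair-Fed fat (-1.27 ± 0.37). The groups were apart for both, as for 6.9% of all probe sets, and neither passed limma's test (adjusted p = 1 for each). Ucp1, the uncoupling protein of brown fat, lay between 25.6 and 223 over all fat arrays, below the filter. The mean log2 signal of the 7 markers was 5.65 to 6.47 in RYGB-Fail fat, against 5.41 to 6.09 in Pair-Fed fat, and its part in the members' values was not tested.

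**Figure D3:**
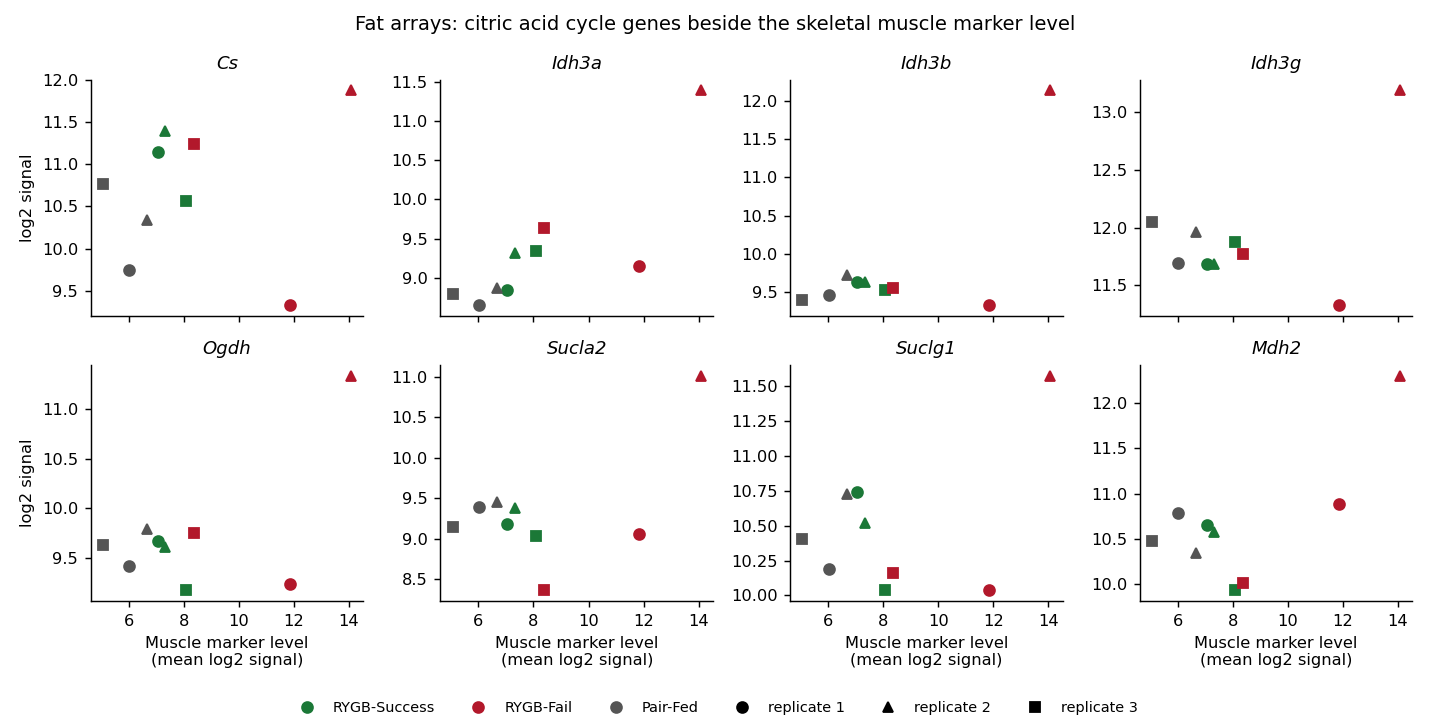
Log2 signal of each citric acid cycle gene (vertical axis, scale set per panel) against the mean log2 signal of 15 skeletal muscle markers (horizontal axis) on the 9 fat arrays, by group (colour) and replicate (shape). RYGB-Fail replicate 2, at a muscle level of 14.07, is the highest point in all 8 panels, and replicate 1, at 11.85, is the lowest for Cs, Idh3b and Idh3g.

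The second comparison set rats losing weight after bypass against Pair-Fed rats in fat. Of the 10 tested probe sets 5 were higher and 5 lower in RYGB-Success, with a median difference of 0.03 against 0.11 over all probe sets. Centring each array on its median, which takes 0.37 off each difference here, left 2 higher and 8 lower (median -0.34). With the array median as a covariate 9 were higher and 1 lower (median 0.27), with the muscle level as a covariate 2 were higher and 8 lower (median -0.38), and without RYGB-Success replicate 3 the count was 8 higher and 2 lower (median 0.15). Muscle levels did not overlap between RYGB-Success and Pair-Fed fat, so the fit with that covariate cannot separate them from group. Cs 1375295_at had the largest difference, 0.75 ± 0.56, and Idh3a differed by 0.39 ± 0.50. The other differences lay between -0.15 and 0.32. None of the 10 passed limma's test (adjusted p 0.975 to 0.999), none had an unadjusted p under 0.05, and in 0 were the groups apart, where 18.6% of all probe sets had groups apart. Over all probe sets 4.86% had an unadjusted p under 0.05 and 0% passed. The 95% intervals were wide, from -0.71 to 1.49 for Idh3a and from -1.04 to 0.73 for Idh3g, so a doubling of Idh3a lay within its interval. Markers of other cells differed between these arrays, in both directions. Mean log2 signals of blood cell markers (4 genes) were 9.03 to 11.49 in RYGB-Success, against 7.98 to 8.61 in Pair-Fed fat. Those of lymphocyte markers (6 genes) were 6.67 to 10.65, against 6.27 to 6.82. Those of skin and mammary epithelium (9 genes) were 5.36 to 9.31, against 5.14 to 5.67. Macrophage markers (8 genes) were at 9.57 to 10.12, against 10.05 to 11.63, and all 8 were lower in RYGB-Success (median -1.02). Of the tested genes in each of these marker lists 0 passed limma's test. The levels of all these lists but blood cells overlapped between the groups. The part of these cells in the members' values was not tested.

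The bypass groups were set against each other in the third comparison. In fat 8 of the 10 probe sets were lower and 2 higher in RYGB-Success than in RYGB-Fail, with a median of -0.31 against 0.17 over all probe sets. Idh3a differed by -0.90 ± 0.50, Idh3b by -0.74 ± 0.60, Mdh2 by -0.68 ± 0.49 and Ogdh by -0.62 ± 0.48. No member passed limma's test (lowest adjusted p = 0.895, with 0 unadjusted p under 0.05), as 0% of all probe sets did, of which 5.69% had an unadjusted p under 0.05. Groups were apart for 0 members and for 7.87% of all probe sets. Without RYGB-Fail replicate 2 the count turned to 7 higher and 3 lower (median 0.18), and with the muscle level as a covariate to 10 higher (median 0.42). Muscle levels of the bypass groups did not overlap in fat either, so the latter fit cannot separate muscle level from group.

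In hypothalamus the largest member difference between treatment groups was 0.59. The SD of log2 signal over 9 arrays was larger in fat than in hypothalamus for 9 of the 10 probe sets, and for 6 of 10 without fat RYGB-Fail replicate 2. For Idh3b it was 0.88 in fat, or 0.13 without that array, against 0.19 in hypothalamus. In RYGB-Success 9 of 10 probe sets were higher than in Pair-Fed, by a median of 0.21 against 0.05 over all probe sets, but after centring each array on its median, which takes off 0.24, 5 were higher and 5 lower. Pair-Fed replicate 1 was the lowest of the 9 hypothalamus arrays for 5 of the 10, against 12.2% of all probe sets, and RYGB-Success replicate 3 the highest for 4 of the 10, against 22.8% of all. That RYGB-Success array also had the lowest ratios of 3′ to 5′ probe sets in this tissue, 6.65 for actin and 1.58 for Gapdh, against 10.1 to 179 and 2.44 to 6.22 on the other 8. Without Pair-Fed replicate 1 the count was 10 higher (median 0.15), without RYGB-Success replicate 3 it was 8 higher and 2 lower (median 0.19), and without Pair-Fed replicate 3 it was 8 higher and 2 lower (median 0.35). Ogdh differed by 0.42 ± 0.22, Idh3g by 0.37 ± 0.24, Suclg1 by 0.35 ± 0.21 and Idh3b by 0.28 ± 0.20. No member passed limma's test (adjusted p = 0.428 for Ogdh, 0.0107% of all probe sets passed), and 0 members had an unadjusted p under 0.05, against 13.1% of all probe sets. Groups were apart for Ogdh alone, as for 18% of all probe sets. Blood cell markers (4 genes) were also higher here, with mean log2 signals of 8.77 to 10.39 in RYGB-Success and 6.66 to 8.22 in RYGB-Fail, against 6.64 to 7.57 in Pair-Fed, and their part in the difference was not tested. In limma's test 0 of the 4 passed for RYGB-Success against Pair-Fed.

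RYGB-Fail and Pair-Fed hypothalamus differed in no common direction, with 5 probe sets higher and 5 lower, a median of 0.04 and 0.03 over all probe sets. The range was -0.33 for Cs 1369967_at to 0.59 ± 0.48 for Cs 1384201_at, both dim probe sets of 1 gene that disagreed in sign. Idh3g differed by 0.35 ± 0.24 and Idh3b by less than 0.01. In limma's test 0 members and 0% of all probe sets passed, and 0 members, against 2.39% of all probe sets, had an unadjusted p under 0.05. Groups were apart for 0 members and for 9.18% of all probe sets. RYGB-Success exceeded RYGB-Fail for 8 of 10 probe sets (7 after median centring), with a median of 0.17 against 0.01 over all. Idh3b, whose groups were apart as in 10.5% of all probe sets, differed by 0.28 ± 0.20 (limma, adjusted p = 0.793). No member passed there, where 0.00537% of all probe sets did, and 0 members, against 6.01% of all probe sets, had an unadjusted p under 0.05. For Idh3a the 95% interval was -0.33 to 0.62 for RYGB-Success minus Pair-Fed, so a doubling lies outside it.

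**Figure D4:**
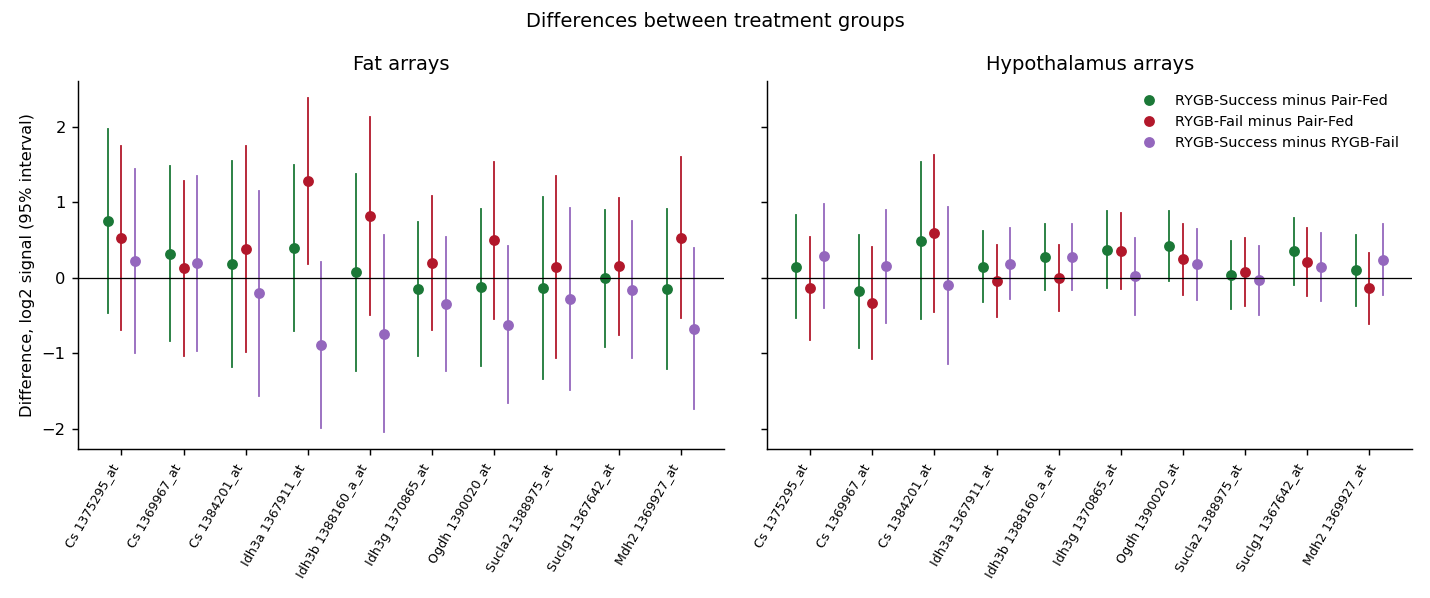
Differences in mean log2 signal between treatment groups (vertical axis, points with 95% intervals) for the 10 tested probe sets in fat (left) and hypothalamus (right). All hypothalamus intervals include 0, and in fat all but that of Idh3a in RYGB-Fail minus Pair-Fed (0.19 to 2.38, before adjustment) do.

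For 3 of the 10 tested probe sets, those of Idh3a, Sucla2 (1388975_at) and Mdh2, the tissue difference in Pair-Fed rats was larger than any of their differences between treatment groups. In Pair-Fed rats Idh3a was lower in fat than in hypothalamus, with a difference of -2.47 ± 0.39 on the log2 scale, a fold of 0.181 (limma, adjusted p = 6.25e-05, n = 3 arrays each). Mdh2 was lower in fat with -1.20 ± 0.39, a fold of 0.436 (limma, adjusted p = 0.0214), and 4 of the 6 fits that left out 1 Pair-Fed array lost that call (adjusted p up to 0.082). These were the 2 of 10 probe sets that passed, where 39.5% of all 21719 probe sets passed and 17.2% passed as lower in fat. Idh3b (-0.65 ± 0.47) and Sucla2 (-0.67 ± 0.43) were also lower on every fat array than on every hypothalamus array without passing, and groups were apart for 4 of the 10 against 63.2% of all. Idh3g (0.05 ± 0.35) and Ogdh (0.05 ± 0.38) lay near 0, as did Suclg1 (-0.17 ± 0.33). So the 3 subunits of 1 enzyme differed by -2.47, -0.65 and 0.05 between the same arrays, values of separate probe sets whose difference was not tested. Median centring, which takes 0.51 off each value, made all 10 negative, and it kept the calls of Idh3a and Mdh2.

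The same genes stood out in rats losing weight. In RYGB-Success rats Idh3a was lower in fat, at -2.23 ± 0.39 (adjusted p = 0.000204) and so was Mdh2, at -1.44 ± 0.39 (adjusted p = 0.00651, both limma), again 2 of 10 where 44.1% of all probe sets passed. In RYGB-Fail rats Idh3a was lower in fat, at -1.14 ± 0.39 (limma, adjusted p = 0.0296), the 1 member that passed where 36.7% of all did, and the call was lost in 5 of the 6 fits that left out 1 array. Without fat RYGB-Fail replicate 2, 5 members passed as lower in RYGB-Fail fat, Idh3a at -1.81, Sucla2 at -1.37, Mdh2 at -1.14, Idh3b at -0.73 and Suclg1 at -0.71. The spread is shared by all 18 arrays, so the same array also widened the error in the other groups. With it left out, 4 members passed in Pair-Fed and 4 in RYGB-Success rats, Idh3a, Idh3b, Sucla2 and Mdh2 in both. For the fits without that array the share of all probe sets that passed is not given here. The counts from those fits are therefore not read as particular to the members. With all arrays that share was 36.7% to 44.1% in the 3 groups. Tissue differences in RYGB-Success and RYGB-Fail rats and the fits without that array in the shared spread were added after the data were seen.

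**Figure D5:**
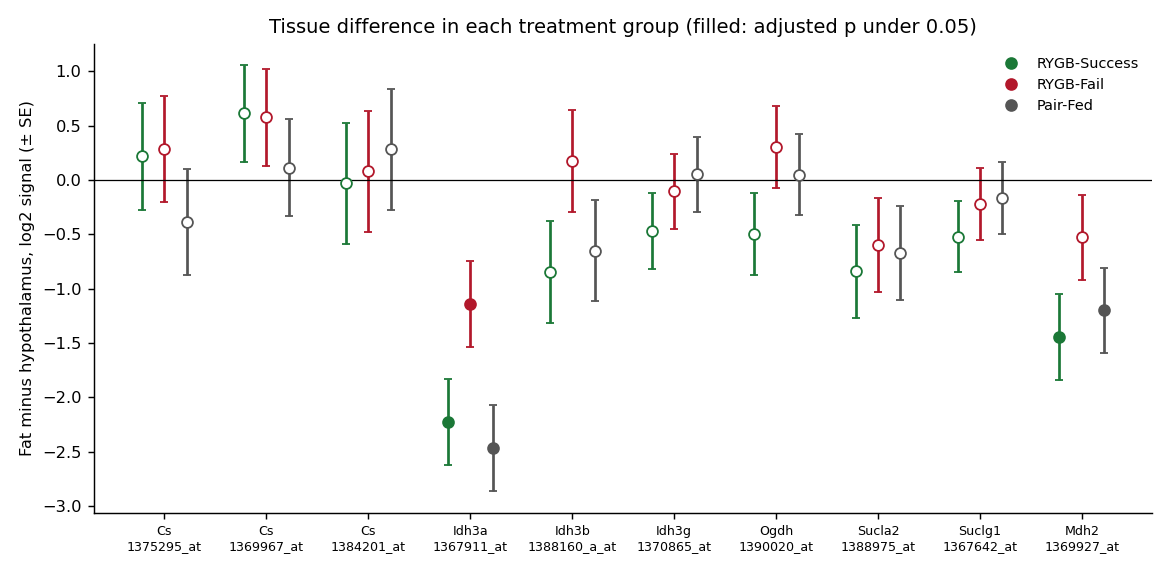
Fat minus hypothalamus difference in mean log2 signal (vertical axis, points with ± SE) for the 10 tested probe sets in RYGB-Success, RYGB-Fail and Pair-Fed rats, filled where the adjusted p was under 0.05. Idh3a lies lowest in all 3 groups, at -2.23, -1.14 and -2.47. Idh3g and Ogdh lie near 0 in Pair-Fed rats, at 0.05 each, but at -0.47 and -0.50 in RYGB-Success rats. The Cs probe sets run from -0.39 (1375295_at, Pair-Fed) to 0.61 (1369967_at, RYGB-Success).

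Whether a treatment difference itself differed between fat and hypothalamus was tested over all 18 arrays. For Idh3a the RYGB-Fail minus Pair-Fed difference was larger in fat than in hypothalamus by 1.33 ± 0.56 (limma, adjusted p = 1), and it was the 1 member with an unadjusted p under 0.05 in these 3 tests. Mdh2 stood at 0.67 ± 0.56 and Idh3b at 0.82 ± 0.66 in that test. Without fat RYGB-Fail replicate 2, an alternative added after the data were seen, Idh3a was at 0.66 ± 0.36, Mdh2 at 0.06 ± 0.41 and Idh3b at -0.08 ± 0.31 (limma, adjusted p 0.997 to 0.998). Without replicate 1 Idh3b was at 1.33 ± 0.62, and without replicate 3 Mdh2 was at 1.20 ± 0.46, also without passing. In the 3 interaction tests 0 members and 0% of all probe sets passed, with 7.61%, 2.99% and 6.09% of them at an unadjusted p under 0.05 for RYGB-Success minus Pair-Fed, RYGB-Fail minus Pair-Fed and RYGB-Success minus RYGB-Fail.

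Genes around the cycle were read from lists of other cycle enzymes, pyruvate entry, cytosolic and linking enzymes, mitochondrial carriers, regulators of mitochondrial biogenesis and the respiratory chain. None of their genes passed limma's test between treatment groups in either tissue, as with 0% to 0.0107% of all probe sets. Leaving out 1 array in turn, added after the data were seen, also gave 0 of 68 genes in both tissues, except without fat RYGB-Fail replicate 3, when 3 passed in fat for RYGB-Success minus RYGB-Fail, where 5.99% of all probe sets did. These were the citrate lyase Acly (1.26 ± 0.32), the dicarboxylate carrier Slc25a10 (1.48 ± 0.39) and the ADP/ATP carrier Slc25a4 (-1.89 ± 0.44), with adjusted p of 0.0324 to 0.0488 in limma's test. In RYGB-Fail against Pair-Fed fat 6 of 8 other cycle enzymes were higher (median 0.15) and 15 of 18 respiratory chain genes were higher (median 0.27). Without RYGB-Fail replicate 2 these became 2 of 8 (median -0.12) and 1 of 18 (median -0.31), so the respiratory chain list turned as the cycle members did. Nearest to passing among the cycle enzymes was Dlst, the second component of Ogdh's complex, at 0.65 ± 0.43. Cox6a1, a subunit of cytochrome c oxidase, went the other way at -0.92 ± 0.38, as did the ADP/ATP carrier Slc25a5 at -0.92 ± 0.37. Me3, a mitochondrial malic enzyme, was at 1.33 ± 0.61 and Tfb1m, a mitochondrial rRNA methyltransferase, at 1.26 ± 0.86. Pdk4, the kinase that switches pyruvate dehydrogenase off, was at 0.99 ± 0.78 (adjusted p = 1 for each of these genes, limma).

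In RYGB-Success fat 2 of 8 other cycle enzymes and 2 of 18 respiratory chain genes were higher than in Pair-Fed fat, with medians of -0.21 and -0.30. Dld, the third component of the 2-oxoglutarate and pyruvate complexes, was at -0.49 ± 0.37 and Cox4i1, a subunit of cytochrome c oxidase, at -0.73 ± 0.39. Acly, which splits exported citrate to acetyl-CoA in the cytosol, was at 1.04 ± 0.31 against Pair-Fed (limma, adjusted p = 0.697) and at 1.12 ± 0.31 against RYGB-Fail (limma, adjusted p = 0.762). Its groups were apart in both, as for 18.6% and 7.87% of all probe sets. The citrate carrier Slc25a1 was at -1.07 ± 0.92, Pdk4 at 1.21 ± 0.78 and Pprc1, a coactivator of the PGC-1 family, at 0.76 ± 0.37 against Pair-Fed. Against RYGB-Fail the values were 1.14 ± 0.37 for Slc25a5, 0.83 ± 0.37 for Pprc1, -1.18 ± 0.53 for cytochrome c1 (Cyc1), 0.58 ± 0.42 for the pyruvate dehydrogenase phosphatase Pdp1 and -0.51 ± 0.37 for Dld. All 8 other cycle enzymes were lower there, with a median of -0.36.

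In RYGB-Success against Pair-Fed hypothalamus 6 of 8 other cycle enzymes, 8 of 12 pyruvate entry genes and 14 of 18 respiratory chain genes were higher, with medians of 0.36, 0.28 and 0.11. Suclg2, the GDP-forming partner of Suclg1, was at 0.53 ± 0.22, the pyruvate carrier subunit Mpc2 at 0.55 ± 0.22 and the cytochrome oxidase subunit Cox5b at 0.67 ± 0.21. Polrmt, the mitochondrial RNA polymerase, was at 1.20 ± 0.43, the malic enzyme Me2 at -0.69 ± 0.30 and the ADP/ATP carrier Slc25a4 at -0.59 ± 0.28 (adjusted p 0.247 to 0.384 for these genes, limma). Median centring would take 0.24 off each. Against RYGB-Fail, Slc25a10, the dicarboxylate carrier, was at 1.37 ± 0.45, Polrmt at 1.05 ± 0.43, Me2 at -0.80 ± 0.30, the complex I subunit Ndufs3 at -0.48 ± 0.23, the pyruvate dehydrogenase component Pdhx at 0.60 ± 0.30 and the succinate dehydrogenase subunit Sdhd at 0.39 ± 0.20. In RYGB-Fail against Pair-Fed hypothalamus the leading gene of each list lay between -0.53 ± 0.37 for Pck2, the mitochondrial phosphoenolpyruvate carboxykinase, and 0.69 ± 0.37 for Slc25a1. Between them were Esrra, an oestrogen-related receptor (0.60 ± 0.39), the succinate dehydrogenase subunit Sdhb (0.35 ± 0.21), Cox5b (0.33 ± 0.21) and the pyruvate carrier subunit Mpc1 (0.25 ± 0.22).

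Between tissues enzymes outside the cycle ran both ways in Pair-Fed rats, some with Idh3a and some opposite to it. Of 12 cytosolic and linking enzymes 7 were lower and 5 higher in fat (median -0.13). Of these, 3 passed as higher and 4 as lower, where 22.4% of all probe sets passed as higher and 17.2% as lower. Those of lowest p are named, and all were higher in fat. Pck1, which makes phosphoenolpyruvate for glycerol synthesis in fat, was higher in fat by 8.78 ± 1.15 (limma, adjusted p = 7.25e-06), the cytosolic aconitase Aco1 by 1.51 ± 0.24 and Idh1, the cytosolic NADP-dependent isocitrate dehydrogenase, by 1.66 ± 0.30. Among 8 other cycle enzymes 1 passed, Dlst, lower in fat at -1.11 ± 0.37 (limma, adjusted p = 0.0213). All 18 respiratory chain genes were lower in fat, with a median of -0.56 against 0.27 over all probe sets, and 1 of them passed, Cox6a1, at -0.91 ± 0.31. In RYGB-Success rats 10 of these 18 passed, all as lower in fat, where 17.6% of all probe sets did, with a median of -0.98. The aspartate/glutamate carriers Slc25a12 and Slc25a13 were lower in fat, at -1.64 and -1.71, and Slc25a10 was higher by 1.69 ± 0.55, the 3 of 9 carriers that passed. Ppargc1a, the PGC-1 alpha coactivator, was lower in fat, at -4.12 ± 0.61, the 1 of 10 regulators that passed, and 0 of 12 pyruvate entry genes passed, with Pdk4 nearest at 1.76 ± 0.71 (limma, adjusted p = 0.0563).

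The genes most like the members were ranked by Pearson's r with the mean standardised log2 signal of the 8 genes over the 9 arrays of a tissue. In fat these were Atp5me (r = 0.986), Ttc7b (0.985), Asph (0.978), Cacybp (0.968) and Uqcrfs1 (0.964), of which Atp5me and Uqcrfs1 encode parts of ATP synthase and of complex III. The arrays share 1 bright sample, and without the 2 most extreme, RYGB-Fail replicates 2 and 1, r was 0.81 for Atp5me and 0.895 for Cacybp. It was then 0.725 for Ttc7b, 0.728 for Asph and 0.76 for Uqcrfs1. The members' own r with their mean fell to -0.08 for Idh3a and -0.06 for Idh3g without these arrays, against 0.886 and 0.938 with them, and stayed at 0.893 for Suclg1. Between these were Sucla2 (0.324), Mdh2 (0.376), Cs (0.586), Idh3b (0.609) and Ogdh (0.718), also without these arrays. In hypothalamus the 5 most alike were Dtymk (r = 0.978), Ip6k1 (0.971), Tusc2 (0.97), Rhbdd2 (0.964) and 6430548M08Rikl (0.963). There the members' own r ran from 0.05 for Sucla2 to 0.898 for Suclg1, so their mean described some of them poorly. These r are descriptions of 9 arrays.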

How the data were processed

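Biotin-labelled RNA of 9 fat and 9 hypothalamus arrays was analysed. Total RNA was extracted with Qiagen RNeasy and amplified with NuGEN WT-Ovation, per the labels' protocols. The authors deposited 1 signal intensity per probe set, on a linear scale. The submitters' processing notes name MAS5 and GCOS, without versions in the sources used here. Each array's mean after trimming 2% at either end was about 500.2, so the authors' scaling equalises that mean and not the median. The number of arrays limits the precision.

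Of 31099 probe sets, 57 controls were left out, 20826 had 1 symbol, 436 had several and 9780 had none; 0 symbols changed on update through RefSeq (GRCr8). Groups and replicate numbers came from the titles. Values were log2 of the signal with no pseudocount. The upper 60% of probe sets by tissue mean (18625) were tested in each tissue with limma 3.58.1 in R 4.3.3 (lmFit, eBayes with trend), and 21719 probe sets kept in either tissue were tested over 18 arrays. Tests were two-sided, Benjamini-Hochberg adjusted over all probe sets tested, with a threshold of 0.05. Gene lists used the probe set with the highest mean signal. Tested on simulated data with 200 changed of 18625 probe sets, RYGB-Success against Pair-Fed recovered 0%, 24.5% and 76.5% of changes of 1, 2 and 4 log2 in fat, and 0%, 73.5% and 97.5% in hypothalamus. Within a tissue, deviations from group means correlated at -0.163 to 0.29 between arrays of 1 replicate number, so the numbers were not used as pairs. Fat and hypothalamus arrays of 1 number were not compared in this way, and the fits over 18 arrays treat them as independent. Named were all member probe sets and, per list and comparison, up to 3 passing genes of lowest p, or else the 1 gene of lowest p. Members and lists were chosen with earlier results of these data known. Alternatives were a pseudocount of 10% of the mean, no filter, the upper 40%, quantile normalization, median centring, array weights, a replicate block, the array median or the muscle level as a covariate, and leaving out each array. Plots used Python 3.11.15, pandas 2.3.3 and matplotlib 3.10.9.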

Additional observations from a re-analysis of the deposited data

How the results depend on the processing

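No member passed between treatment groups in either tissue under any alternative run. Counts over all probe sets moved. In fat (0 in each comparison) array weights gave 39 for RYGB-Success minus Pair-Fed, 35 for RYGB-Fail minus Pair-Fed and 26 for RYGB-Success minus RYGB-Fail, the array median as a covariate gave 16 for RYGB-Fail minus Pair-Fed, and the muscle level as a covariate gave 1 there and 1 for RYGB-Success minus RYGB-Fail. Leaving out 1 array gave 0 to 22, 0 to 42 and 0 to 1116 in that order, the last without RYGB-Fail replicate 3. In hypothalamus RYGB-Success minus Pair-Fed (2) had 1 with the upper 40% of probe sets, 6 with median centring, 6 with array weights, 19 with the array median as a covariate and 1 to 65 leaving out 1 array. RYGB-Fail minus Pair-Fed (0) had 1 with the array median as a covariate. RYGB-Success minus RYGB-Fail (1) had 2 with the pseudocount, with no filter, with quantile normalization, with median centring, with the replicate block and with the array median as a covariate, 6 with array weights and 0 to 6 leaving out 1 array. The replicate block changed no member's call. The interactions (0) had 12, 18 and 5 calls with array weights for RYGB-Success minus Pair-Fed, RYGB-Fail minus Pair-Fed and RYGB-Success minus RYGB-Fail, and 0 to 42, 0 to 28 and 0 to 98 leaving out 1 array. Between tissues the members that passed were 1 to 2 in Pair-Fed rats (2) and 0 to 5 in RYGB-Fail rats (1) leaving out 1 array, and 4 in Pair-Fed and 4 in RYGB-Success rats (2) without fat RYGB-Fail replicate 2 in the shared spread. With array weights 3 passed in Pair-Fed and 3 in RYGB-Success rats, Sucla2 being added in both (limma, adjusted p = 0.0278 and 0.0427). The shares of all probe sets that passed between tissues under these alternatives are not given here. In RYGB-Fail rats the Idh3b tissue difference of 0.17 became -0.73 (limma, adjusted p = 0.0196) without that array, and ran from -0.73 to 0.68 leaving out 1 array. The cause of these moves was not tested. Of 148 member values under alternatives in RYGB-Fail minus Pair-Fed fat, 19 moved by more than their standard error, and 2 of 148 in RYGB-Success minus Pair-Fed fat. In fat, changes of 1 log2 were not recovered in simulation, so differences of the size seen for most members were not detectable here.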
